A study of Mus musculus with 4 samples.

Results

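The sites described here are 726 places in the genome where p63 ChIP peaks were listed in both alphaKO and WT epidermis, away from protein-coding gene ends, and where the alphaKO peak was relatively the higher of the pair. They were chosen by their pileup, the number of sequenced fragments that cover a peak's summit. Each WT peak was paired with the alphaKO peak that shares most bases with it, the log2 ratio of alphaKO over WT pileup was taken, and the median ratio of all 7066 pairs (0.49, a 1.40-fold higher pileup in alphaKO) was subtracted. Sites were kept at a centred log2 ratio of at least 1, which is a raw ratio of at least 2.81, when the WT summit lay more than 1 kb from every end of a protein-coding gene. This left 726 of 6262 distal pairs (11.6%), out of 7066 pairs in all, from 14593 alphaKO and 10616 WT peaks. Because the pileups chose the sites, pileups, folds and their ratios are given as a description, with no test.

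Epidermis was taken from the dorsal skin of newborn mice (postnatal day 0), separated from the dermis with Dispase and made into single cells with Accutase before crosslinking, per the series' design text. Chromatin bound by p63 was recovered with the antibody EPR570. The groups were p63 alphaKO epidermis and wild-type (WT) epidermis, with 1 ChIP library each and an input library each that was not used here. The age and tissue are shared by both groups, while no source used here gives the strain, the sex, the number of animals or the alteration behind the alphaKO label. Each genotype having 1 library, no spread between replicates and no test between genotypes could be had. A difference in depth or in recovery by the antibody cannot be told apart from a difference in binding, and 95% intervals in the text cover counting error only.

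p63 is a transcription factor of the p53 family that is needed to form and maintain the epidermis and other stratified epithelia. It binds DNA as a tetramer, at sites made of a pair of half-sites that resemble those of p53, and many of its sites in keratinocytes are distal elements in enhancers. The Trp63 gene makes alpha, beta and gamma isoforms that share the DNA-binding domain and differ at the C terminus. The alpha form, the main one in basal keratinocytes, ends in a SAM domain and an inhibitory domain, where mutations causing AEC syndrome, a skin disorder, cluster.

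Of the 726 sites, 4 had their WT summit inside a RefSeq promoter window (250 bases before to 50 after an annotated start, build GRCm38.p6), so their bases are known here. They are shown because p63 sites can be looked for directly under the summits. Each line gives the bases within 60 bp of the alphaKO summit, as far as the window reaches, 5′ to 3′ on the strand of the gene whose start the window belongs to. Capitals mark a p53 family full site, which was searched for on both strands as 20 letters with the C and G of both half-site cores present and at least 17 letters matching the consensus.
Gm41854 start, chr19:44672167-44672281, plus strand: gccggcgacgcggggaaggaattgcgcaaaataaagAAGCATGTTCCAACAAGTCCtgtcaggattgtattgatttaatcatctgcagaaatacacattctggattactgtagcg
AU040972 start, chr11:79484041-79484161, minus strand: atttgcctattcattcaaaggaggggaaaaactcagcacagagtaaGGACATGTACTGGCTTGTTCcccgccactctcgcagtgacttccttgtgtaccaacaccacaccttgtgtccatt
Dennd2c start, chr3:103140292-103140375, plus strand: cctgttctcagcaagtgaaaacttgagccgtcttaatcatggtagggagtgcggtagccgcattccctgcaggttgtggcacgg
Gm42297 start, chr4:70678983-70679046, plus strand: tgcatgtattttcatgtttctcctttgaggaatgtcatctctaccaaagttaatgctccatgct

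The first site, before the lncRNA Gm41854 and 74.4 kb from Pax2, a developmental transcription factor gene, had a pileup of 500 in alphaKO and 135 in WT. The second, before the lncRNA AU040972 inside the body of Nf1, which encodes the Ras regulator neurofibromin, had 425 in alphaKO and 83 in WT. Each held a full site, with 19 and 18 matching letters, whose centre lay 8.5 and 4.5 bp from the alphaKO summit. The site at a start annotated for Dennd2c (273 in alphaKO, 92 in WT) had a best match of 15 letters, under the threshold. The site before Gm42297 (94 in alphaKO, 27 in WT) had its alphaKO summit 3 bp from the edge of its window, so a site that runs past this edge could not be scored there. A missing match says only that no complete site of this kind lies inside the window.

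For comparison, the bases under distal pairs that were even (centred log2 ratio between -1 and 1) or WT-stronger (at most -1) are shown for those with the highest alphaKO pileup among pairs with a window.
Bbc3 start, even, chr7:16309434-16309554, plus strand: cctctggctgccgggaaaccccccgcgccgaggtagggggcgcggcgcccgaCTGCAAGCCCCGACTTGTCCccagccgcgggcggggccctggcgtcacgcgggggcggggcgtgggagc
Rab21 start, even, chr10:115315598-115315718, minus strand: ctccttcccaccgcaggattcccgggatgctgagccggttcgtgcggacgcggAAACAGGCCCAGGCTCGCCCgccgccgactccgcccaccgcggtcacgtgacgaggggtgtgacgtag
Ap5b1 start, WT-stronger, chr19:5567853-5567973, plus strand: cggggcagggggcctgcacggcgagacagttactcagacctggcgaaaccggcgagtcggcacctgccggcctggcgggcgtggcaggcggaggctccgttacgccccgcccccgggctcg
Gm41624 start, WT-stronger, chr17:79728628-79728709, minus strand: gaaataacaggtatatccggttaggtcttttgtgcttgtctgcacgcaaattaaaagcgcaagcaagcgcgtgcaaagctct

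Anywhere in the window, a full site was found in 2 of 4 alphaKO-stronger windows, against 19 of 64 even windows (29.7%, 95% Wilson interval 19.9 to 41.8), 1 of 9 WT-stronger windows and 453 of all 32851 promoter windows (1.38%). Where a summit lay in more than 1 window, the window with the best match was kept, a choice not made for all promoter windows. With 4 windows, the interval for the alphaKO-stronger sites ran from 15.0 to 85.0%, so no difference from even sites was detectable. Other motifs were searched on both strands in whole windows. Shares in brackets are those of all promoter windows and then of the 64 even windows. The TEAD motif GGAATG was in 3 of the 4 windows (14.7%, 26.6%) and the C/EBP motif TTGCNNAA in 2 (10.8%, 10.9%). In 1 window each were the AP-1 motif TGANTCA (7.81%, 14.1%), the AP-2 motif GCCNNNGGC (16.6%, 20.3%) and the Runx motif TGTGGT (16.8%, 7.81%). The Klf motif CCACCC (31.5%, 48.4%) and the motif AGATAA of GATA factors (11.2%, 6.25%) were also in 1 each. The Grhl motif AACCNGTT (2.09%, 6.25%) was in none. A match is a description of the bases and not a measured binding site, and the other 722 sites had no sequence here.

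The 726 sites were strong alphaKO peaks paired with modest WT peaks. Their median pileup was 348 (quartiles 223 to 564.5) in alphaKO and 78 (quartiles 58 to 107) in WT. Even distal pairs had medians of 161 in alphaKO and 109 in WT, and WT-stronger pairs 51.5 in alphaKO and 98 in WT. In fold enrichment, the authors' ratio of the pileup to local background, the alphaKO-stronger sites had a median of 47.1 in alphaKO and 10.7 in WT. Of their alphaKO peaks 529 (72.9%) stood in the strongest 20% of the alphaKO list by fold, while 132 (18.2%) of their WT peaks stood in the strongest 20% of the WT list. The WT peaks were nonetheless well past the caller's threshold in most cases, with a median −log10 q of 53.5.

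**Figure D1:**
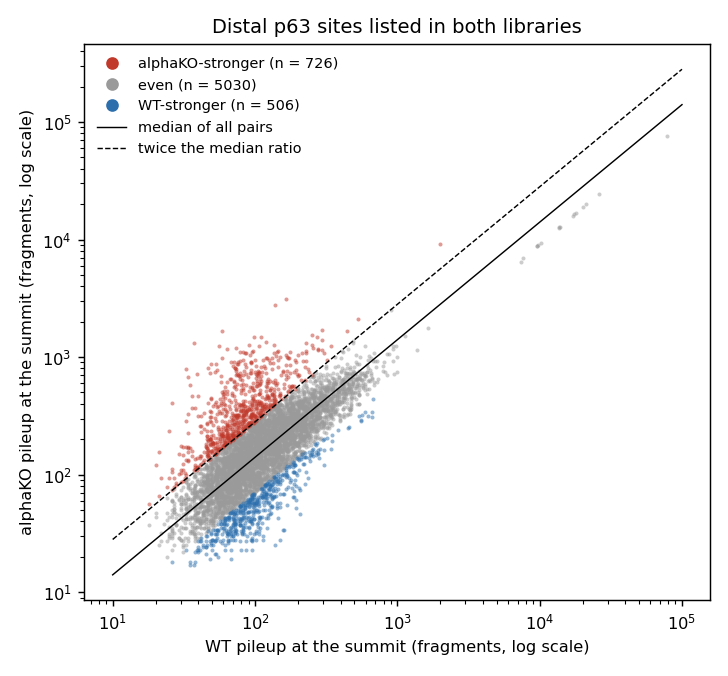
Pileup at the summit in alphaKO (y axis, fragments, log scale) against WT (x axis, fragments, log scale) for the 6262 distal pairs. Points are sites, coloured as alphaKO-stronger (726), even (5030) or WT-stronger (506); the solid line is the median ratio of all pairs and the dashed line the threshold. The alphaKO-stronger sites have a median WT pileup of 78 (quartiles 58 to 107) and reach up to 9173 in alphaKO.

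Members of the group differed widely in the size of the ratio. The median centred log2 ratio was 1.49 and the highest 4.67. A ratio of 1 to 1.5 was found at 369 sites, 1.5 to 2 at 164, 2 to 3 at 150, and 3 or more at 43. The WT pileup hardly moved between these steps (medians of 77, 82, 76.5 and 71), whereas the alphaKO pileup increased along them (253, 371.5, 593 and 920). Both pileups enter the ratio that sets the steps. A site also needed a listed WT peak, the lowest WT pileup being 18, so neither course is an independent result. The exact binomial interval for counting error reached below the threshold of 1 at all but 428 of the sites (59.0%), which describes how near the others stand to it and tests nothing, since the same pileups chose the sites. On the scale of fold in place of pileup, 502 of the 726 (69.1%) also passed a centred log2 ratio of 1.

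The threshold fell within a dense range of values. The sites just inside it were assigned to Gm815 and Gpc4 (1.00 each, with 222 in alphaKO and 79 in WT at both) and to Cdc42bpg (1.00, with 208 in alphaKO and 74 in WT). Just outside stood sites assigned to Stx7 (438 in alphaKO and 156 in WT), Csrp3 (359 in alphaKO, 128 in WT) and Zpld1 (255 in alphaKO, 91 in WT). Their ratios differ from those inside by less than the counting error.

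Among all pairs, 10.7% passed the ratio threshold in the alphaKO direction and 9.26% in the WT direction. By position, 11.6% of distal pairs (10.8 to 12.4) and 3.48% of pairs within 1 kb of a gene end (28 of 804, 2.42 to 4.99) passed toward alphaKO, while 8.08% of distal pairs and 18.4% of gene-end pairs passed toward WT. Distal pairs ranked by alphaKO pileup in 5 equal groups, weakest first, were alphaKO-stronger in 0.399%, 2.56%, 8.31%, 16.0% and 30.7% of cases. Ranked by WT pileup, weakest first, the shares were 18.4%, 16.6%, 13.1%, 7.11% and 2.71%. The rule sets part of both gradients, since each pileup enters the ratio. By chromosome the share ran between 7.64% on chromosome 2 (35 of 458) and 16.3% on chromosome 19 (27 of 166) among autosomes, and it was 6.49% on X (5 of 77, 2.81 to 14.3).

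**Figure D2:**
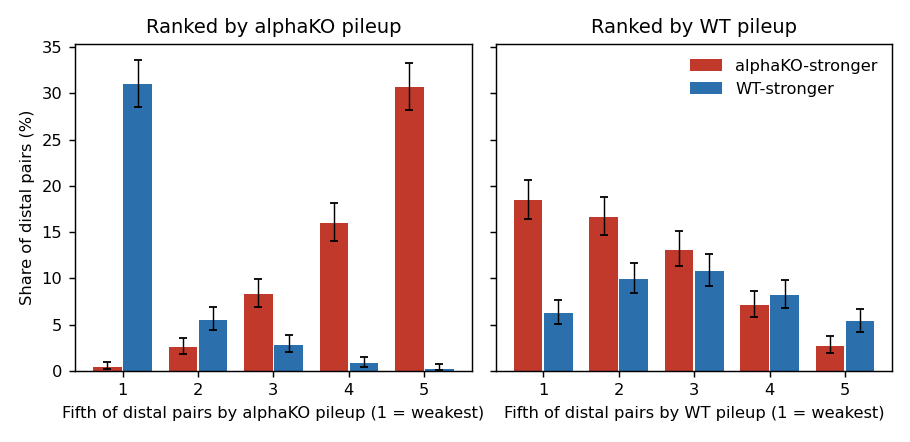
Share of distal pairs (y axis, percent) that were alphaKO-stronger or WT-stronger in each of 5 equal groups, ranked by alphaKO pileup (left) or by WT pileup (right), with the weakest group at 1. Bars carry 95% Wilson intervals; the alphaKO-stronger share reaches 30.7% in the strongest group by alphaKO pileup and is 18.4% in the weakest by WT pileup.

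The 10 sites with the highest ratios had WT pileups of 33 to 164 and alphaKO pileups of 677 to 3147. The highest ratio stood inside Dnajc13, which encodes a protein of endosomal membranes (chr9:104211297-104212082), where the pileup was 1320 in alphaKO and 37 in WT, a centred log2 ratio of 4.67 (counting interval 4.20 to 5.18). Next came a site 46.0 kb outside Hhip, whose product binds and antagonises hedgehog ligands (chr8:79919184-79921081), with 1668 in alphaKO and 59 in WT (4.33, 3.96 to 4.73). The other sites in genes were in Sacm1l, a phosphoinositide phosphatase gene (797 in alphaKO, 33 in WT), Myo16, an unconventional myosin gene (1251 in alphaKO, 56 in WT), Shc3, which encodes an adaptor of receptor signalling (677 in alphaKO, 34 in WT), Lhfpl3 (2751 in alphaKO, 139 in WT), Nid2 (3147 in alphaKO, 164 in WT) and Rbms3, an RNA-binding protein gene (1174 in alphaKO, 64 in WT). Outside genes were the sites 49.8 kb from Parm1 (712 in alphaKO, 39 in WT) and 20.4 kb from Socs2, a suppressor of cytokine signalling (868 in alphaKO, 49 in WT). The WT peak was at a fold between 3.79 (Myo16) and 26.6 (Nid2) at these 10 sites, and the alphaKO peak between 66.1 (Myo16) and 323 (Nid2). In Rbms3 the summits were 199 bp apart, so the pileups there may not belong to the same bases; at the other 9 sites they were 7 to 42 bp apart.

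The 10 sites with the highest alphaKO pileup included 3 of these (Nid2, Lhfpl3 and Hhip). The highest pileup of all, 9173 in alphaKO and 1999 in WT at chr17:39844602-39845876, 105 kb from Esp38, stood on a local background of 580 in alphaKO and 706 in WT, where the median over the 726 sites was 6.30 in alphaKO and 6.09 in WT. Its folds were 15.8 in alphaKO and 2.83 in WT, and it was the only one of the 726 with a background above 50. Cops7a, which encodes a subunit of the COP9 signalosome, held the site with the highest fold of the group (382 in alphaKO, 85.0 in WT), with pileups of 2098 in alphaKO and 526 in WT. The remaining sites were in Ppm1h, a protein phosphatase gene (1701 in alphaKO, 297 in WT), Tmem40 (1657 in alphaKO, 446 in WT) and Ermard (1489 in alphaKO, 273 in WT), 149 kb from Maip1 (1529 in alphaKO, 253 in WT) and 71.7 kb from Mmd (1493 in alphaKO, 110 in WT). Cops7a and Tmem40 were strong in both libraries, and their centred ratios were 1.51 and 1.40.

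**Figure D3:**
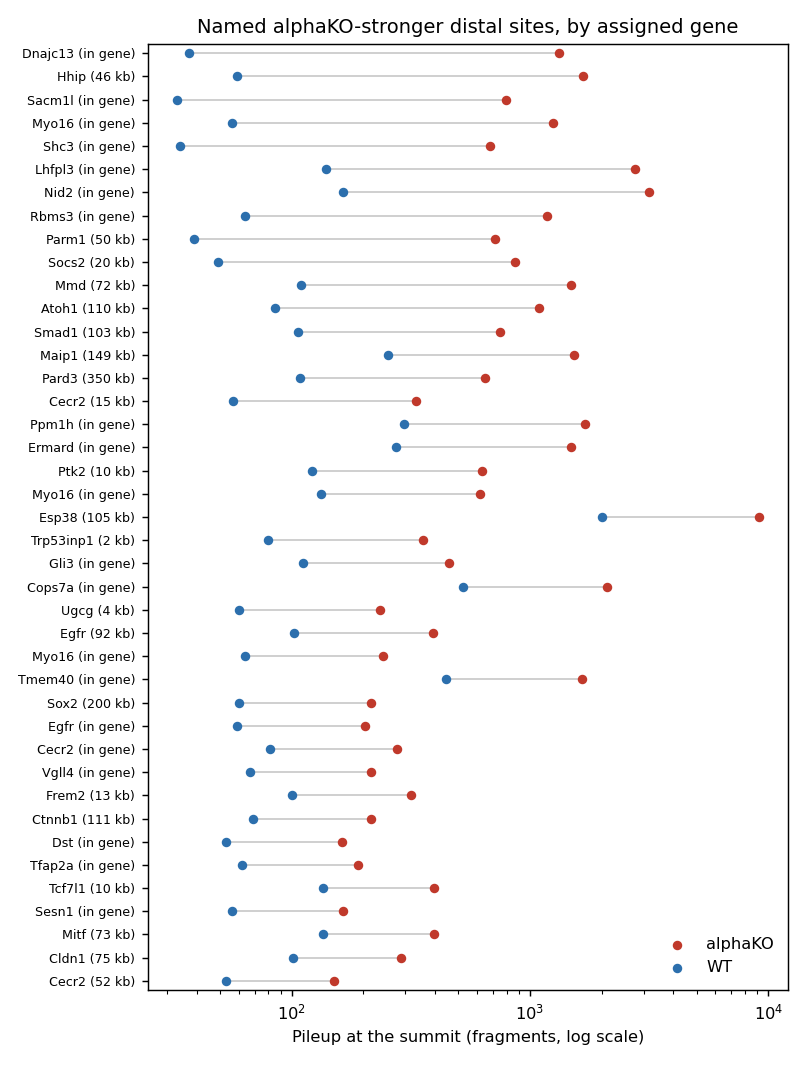
Pileup at the summit (x axis, fragments, log scale) in alphaKO (red) and WT (blue) at the alphaKO-stronger distal sites named in the text, ordered by their ratio with the highest at the top. Labels give the assigned gene and the distance of the WT summit from it; the 10 sites at the top run between 677 and 3147 in alphaKO and between 33 and 164 in WT.

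The counts for gene lists that follow stand beside 11.6% alphaKO-stronger and 8.08% WT-stronger among all distal pairs. Genes of the basal layer and its basement membrane had 3 of the sites among 45 distal shared sites assigned to that list of 24 genes (6.67%), and as many were WT-stronger. Nid2 encodes nidogen-2, which links laminin and collagen IV networks in the basement membrane, and its site in the gene body (chr14:19768777-19769567) was the only shared site assigned to it. The site 13.4 kb from Frem2, whose protein anchors the epidermal basement membrane as part of the Fraser complex, had 316 in alphaKO and 100 in WT. Dst, the gene of a plakin that ties keratin filaments to hemidesmosomes, had 163 in alphaKO and 53 in WT at a site deep in its body, and its 3 other distal sites were even. Of 44 distal sites at 20 genes of desmosomes and cell adhesion, 1 was alphaKO-stronger. It lay 74.9 kb from Cldn1, which encodes the tight junction protein claudin-1 (287 in alphaKO, 101 in WT), and 6 of the 44 were WT-stronger.

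None of 12 distal sites at 22 suprabasal and cornified envelope genes was alphaKO-stronger, and 1 was WT-stronger. Of 9 distal sites at 17 barrier lipid genes, 1 was alphaKO-stronger, 3.84 kb from Ugcg, which encodes glucosylceramide synthase (234 in alphaKO, 60 in WT). Another 1 of the 9 was WT-stronger.

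The epidermal transcription regulators were the list with most distal sites and nearly none of the group. Of 86 distal sites at 32 such genes, 1 was alphaKO-stronger (1.16%, beside 11.6% of all distal pairs) and 10 were WT-stronger (11.6%, beside 8.08%). The single site was in Tfap2a, the AP-2 alpha gene, with 190 in alphaKO and 62 in WT; the other 4 distal sites assigned to Tfap2a were even. Chromatin regulators had 8 distal sites, of which none was alphaKO-stronger and 4 were WT-stronger. Notch pathway genes had 33, with none alphaKO-stronger and 3 WT-stronger.

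At 11 hedgehog genes, 2 of 23 distal sites were in the group (8.70%, beside 11.6% of all distal pairs) and 2 were WT-stronger. Hhip, described above, had no other shared site, and Gli3, a transcription factor that mostly represses hedgehog targets, held a site in its body with 459 in alphaKO and 112 in WT, beside 1 even and 1 WT-stronger site. Of 39 distal sites at 25 Wnt genes, 2 were alphaKO-stronger and 4 WT-stronger. They lay 9.57 kb from Tcf7l1, which encodes a repressor of Wnt targets in skin progenitors (397 in alphaKO, 135 in WT), and 111 kb from Ctnnb1, the beta-catenin gene (216 in alphaKO, 69 in WT). Tcf7l1 also had a WT-stronger site, at a centred ratio of -1.82.

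Smad1, a transducer of BMP signals, had a site 103 kb away with 750 in alphaKO and 106 in WT (centred ratio 2.33) and 3 even sites. The site 103 kb away was the only one of the group among 32 distal sites at 20 BMP and TGF-beta genes. Of these 32, 4 were WT-stronger (12.5%, beside 8.08% of all distal pairs). Egfr, the EGF receptor gene, had 2 of its 6 distal sites in the group, one 91.8 kb outside the gene (391 in alphaKO, 102 in WT) and one in its body (203 in alphaKO, 59 in WT), out of 30 distal sites at 21 genes of FGF and EGF signalling. Of the 30, 2 were WT-stronger.

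Targets of the p53 pathway had 2 of 12 distal sites in the group (16.7%, beside 11.6% of all distal pairs) and 4 that were WT-stronger (33.3%, beside 8.08%). With 12 sites these shares are imprecise. The sites in the group were 1.98 kb outside Trp53inp1, a p53-induced gene (355 in alphaKO, 80 in WT), and inside Sesn1, which encodes the stress protein sestrin 1 (164 in alphaKO, 56 in WT). Of 26 distal sites at 21 hair follicle genes, 1 was in the group, 200 kb from Sox2 (215 in alphaKO, 60 in WT), while the other 5 sites assigned to Sox2 were even. Among the 26, 1 was WT-stronger. Of 35 distal sites at 20 genes of actin, focal adhesion and Hippo signalling, 3 were in the group and 6 were WT-stronger. They were 350 kb from the polarity gene Pard3 (651 in alphaKO, 109 in WT), 9.63 kb from Ptk2, the focal adhesion kinase gene (627 in alphaKO, 122 in WT), and in Vgll4, which encodes a TEAD cofactor (216 in alphaKO, 67 in WT).

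Over these 14 lists, 19 of 434 distal sites were alphaKO-stronger (4.38%, 2.82 to 6.74), beside 11.6% of all distal pairs, and 51 were WT-stronger (11.8%, 9.05 to 15.1), beside 8.08%. The median pileups of the 434 sites were 157 in alphaKO and 109.5 in WT, near those of all distal pairs (165 in alphaKO, 102 in WT), and their median centred ratio was -0.15, against 0.04 for all distal pairs. The lists were chosen with earlier results of these data known, and sites at 1 gene are not independent.

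Markers of other cell types that the cell suspension could hold had 15 distal shared sites at 45 genes, 2 of them in the group (13.3%, 3.74 to 37.9, near the 11.6% of all distal pairs) and none WT-stronger. One lay 110 kb from Atoh1, the Merkel cell transcription factor gene (1090 in alphaKO, 85 in WT, a centred ratio of 3.19), and one 72.9 kb from Mitf, the melanocyte transcription factor gene (395 in alphaKO, 136 in WT). Fibroblast, immune, endothelial and neuron genes had 1, 1, 4 and 3 distal sites and none in the group. Peaks do not measure transcripts, so these values do not show which cells were present.

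Of the 726 sites, 722 were assigned to 1 gene and 4 lay inside several overlapping genes, each of which was counted. Of the 702 genes so assigned, 654 had 1 site, 46 had 2, and 2 had 3. At 4 of the 46 (Nlk, Arhgap32, Ddx25 and Mrps31, named after their values were seen) both WT peaks were paired with the same alphaKO peak, so the 726 sites rest on 722 alphaKO peaks. Myo16 had 3 of its 5 shared sites in the group, with 1251, 615 and 241 in alphaKO and 56, 133 and 64 in WT. Cecr2, which encodes a chromatin remodelling factor with a bromodomain, had 3 of 4, with 334, 276 and 150 in alphaKO and 57, 81 and 53 in WT. The sites not in the group were even at both genes, with the lowest ratios at 0.08 (Myo16) and 0.31 (Cecr2).

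Beyond the 1 kb limit, the rule used neither the position nor the neighbours of a site, nor the distance between its summits. These, and the local background worked out from pileup and fold, are set beside those of other distal pairs as a description with no test. Inside genes lay a share of the alphaKO-stronger sites below that of even pairs: 317 of 726 (43.7%, 40.1 to 47.3) had a WT summit in a protein-coding gene body, against 51.3% of even pairs (49.9 to 52.6) and 45.5% of WT-stronger pairs (41.2 to 49.8). In the 5 groups by alphaKO pileup, weakest first, the share inside genes was 80.0% (of 5 sites), 50.0%, 46.2%, 46.0% and 40.8% for alphaKO-stronger pairs and 45.6%, 49.9%, 50.0%, 54.9% and 56.0% for even pairs, so it was lower than in even pairs in the 3 stronger groups only. In each of the 5 groups by WT pileup it was lower. A further 8.82% lay in a lncRNA gene body alone, and 47.5% (43.9 to 51.2) in neither, against 39.3% of even pairs (37.9 to 40.6) and 43.1% of WT-stronger pairs. The median distance to a protein-coding gene end was 26.3 kb (23.0 to 29.7), against 23.3 kb in even pairs and 18.4 kb in WT-stronger pairs.

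The alphaKO and WT summits of a pair nearly coincided at these sites. They were a median of 6 bp apart (6 to 7), against 8 bp in even pairs (7 to 8) and 21 bp in WT-stronger pairs (18 to 25), and 97.8% were within 100 bp, against 96.4% and 84.8%. The order of alphaKO-stronger and even pairs depended on the pileup by which pairs were ranked. By alphaKO pileup, the distance was shorter in the stronger groups for both. In none of these 5 groups was the median of alphaKO-stronger pairs below that of even pairs: from the weakest to the strongest it was 30, 18.5, 7, 7 and 6 bp in alphaKO-stronger pairs and 19, 10, 7, 6 and 4 bp in even pairs. Ranked by WT pileup, it was below that of even pairs in each of the 5 groups. In the weakest of the 5 groups by WT pileup it was 10 bp for alphaKO-stronger, 17 bp for even and 71 bp for WT-stronger pairs. At 12 of the 726 sites the alphaKO peak was also the partner of another WT peak.

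**Figure D4:**
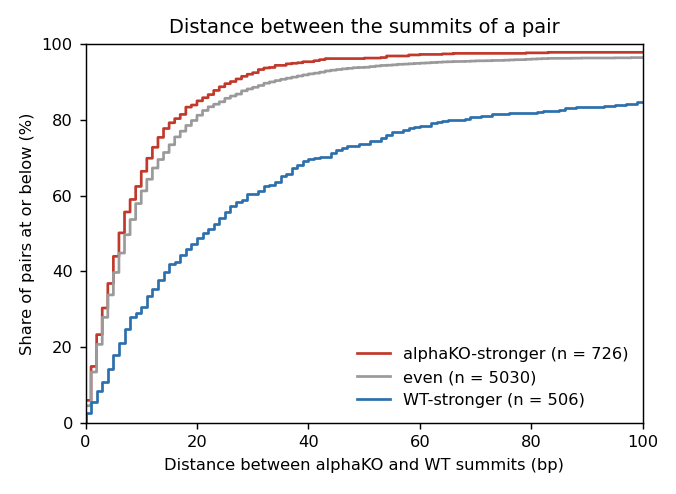
Cumulative share of distal pairs (y axis, percent) by the distance between the alphaKO and WT summits (x axis, bp, shown up to 100), for alphaKO-stronger, even and WT-stronger pairs. The alphaKO-stronger curve reaches 66.4% at 10 bp, the even curve 61.2% and the WT-stronger curve 30.6%.

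The local background at these sites was below that of even pairs in WT, and close to it in alphaKO. It was recovered from the authors' values by dividing the pileup, with 1 added, by the fold and taking 1 away. It had a median of 6.30 in alphaKO and 6.09 in WT at alphaKO-stronger sites. Even pairs had 6.49 in alphaKO and 8.02 in WT, and WT-stronger pairs 6.30 in alphaKO and 9.35 in WT. The alphaKO-stronger sites also had the lowest median WT background within each of the 5 groups by WT pileup. In the strongest of these the medians were 6.50, 9.35 and 9.35 for alphaKO-stronger, even and WT-stronger pairs, and in the weakest 5.35, 6.75 and 8.95. Within the group, sites with ratios of 1 to 1.5 had a median WT background of 6.39, and those at 3 or more had 4.76. No source used here says whether the caller took this background from an input or from the ChIP library, and its part in the ratios was not tested.

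Peaks listed in only 1 of the libraries were counted around each site. Within 50 kb, 345 of 726 sites (47.5%, 43.9 to 51.2) had a peak listed in alphaKO alone, a share close to that of even pairs (45.7%) and WT-stronger pairs (43.9%). A peak listed in WT alone stood within 50 kb of 167 sites (23.0%, 20.1 to 26.2), against 37.4% of even pairs (36.0 to 38.7) and 50.8% of WT-stronger pairs (46.4 to 55.1). Such a WT peak was near 23.3% of the sites with ratios of 1 to 1.5, 25.6% at 1.5 to 2 and 23.3% at 2 to 3. Among the 43 sites with a ratio of at least 3, 4 had one nearby (9.30%, 3.68 to 21.6). Another shared pair stood within 50 kb of 43.8% of the sites (40.2 to 47.4), against 56.2% of even and 68.4% of WT-stronger pairs.

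**Figure D5:**
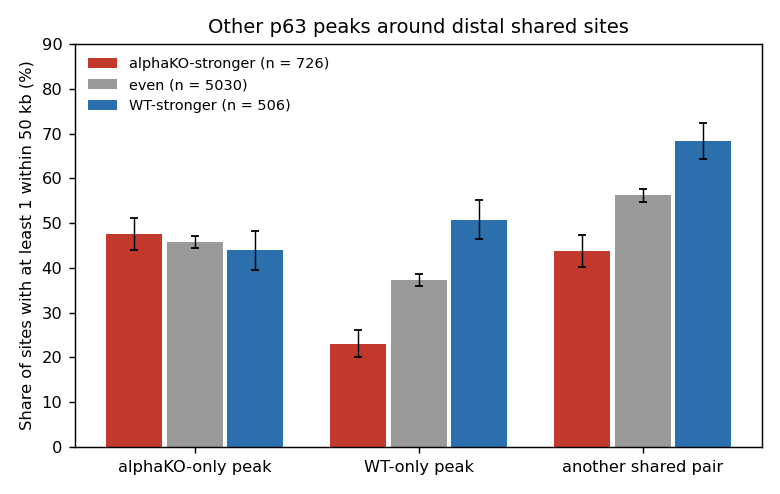
Share of sites (y axis, percent) with at least 1 peak listed in alphaKO alone, 1 peak listed in WT alone, or 1 other shared pair within 50 kb, for alphaKO-stronger, even and WT-stronger distal pairs. Bars carry 95% Wilson intervals; the WT-alone shares are 23.0%, 37.4% and 50.8%, while the alphaKO-alone shares lie between 43.9% and 47.5%.

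The ratios of neighbouring shared pairs were also read. Within 50 kb of alphaKO-stronger sites, 517 neighbouring pairs were counted, leaving out pairs on the same alphaKO peak. Of these, 70 (13.5%, 10.9 to 16.8) also had a ratio of at least 1, beside 10.7% of all pairs. At -1 or lower were 39 (7.54%, 5.57 to 10.1), beside 9.26% of all pairs. Around even pairs the shares were 6.89% (6.25 to 7.60) and 11.3% of 5427, and around WT-stronger pairs 4.01% (2.79 to 5.73) and 17.6% of 699. The share at 1 or more was thus highest around alphaKO-stronger sites, and that at -1 or lower was lowest there. The median ratio of neighbours was 0.02, -0.13 and -0.30 around alphaKO-stronger, even and WT-stronger pairs. Neighbours are counted once for each site they stand near, so neighbouring sites of the group count each other. The same pileup ratios defined the groups, so these shares are a description. Most neighbours of alphaKO-stronger sites were themselves even.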

How the data were processed

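p63 ChIP-seq peak lists from 1 alphaKO and 1 WT epidermis library were used; the series held 4 samples, and the inputs were not used here. The submitters' processing notes name the build mm10, the aligner Bowtie2 and the peak caller MACS2 (2.1.1.20160309). No source used here gives caller options, scaling, duplicate handling or controls. Columns named by the authors in the file headers hold each peak's positions, its pileup (coverage signal at the summit), the −log10 p-value, the −log10 q-value and the fold enrichment, a ratio to local background. Without read totals the depth of each library is unknown. The lowest local background of any peak was 3.85 in alphaKO and 4.22 in WT, and its relation to depth was not tested.

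Pairing, centring and thresholds were as described above. Gene positions (21896 protein-coding genes) and promoter sequences came from RefSeq GRCm38.p6, the assembly that mm10 names. A site was assigned to the gene holding its WT summit, or the nearest. No genome was used, so the planned search for p63 sites under all summits was replaced by promoter windows, whose 1558 overlaps between opposite strands all matched. Shares carry 95% Wilson intervals, medians order-statistic intervals, and ratios exact binomial ones; reads without molecular identifiers are not independent, and neighbouring sites are not replicates. The sites and the 20 gene lists (334 genes, all matched) were chosen with earlier results of these data known. Sites named were the 10 highest by ratio and by alphaKO pileup, 3 on either side of the threshold, up to 3 per list, and genes with 3 or more. Sequences shown were all alphaKO-stronger sites with a window, in place of the planned top sites. For even and WT-stronger pairs 2 each were shown, chosen as described above. The rule was run on simulated data, in which alphaKO pileups were drawn from the WT peaks with counting noise only. All 200 planted sites were recovered and 0 others were called, but they were planted far above the threshold. This checks the working of the rule and not its error rate on real libraries. The pairing was not tested, since WT peaks were paired with themselves. Alternatives covered the measure, centring, thresholds, overlap, distance and chromosomes. Software was matplotlib 3.10.9, SciPy 1.17.1, pandas 2.3.3, NumPy 2.4.6 and Python 3.11.15.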

Additional observations from a re-analysis of the deposited data

How the results depend on the processing

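Under 15 alternatives each, the number of sites, their share of distal pairs, their share inside genes and their median summit distance gave 54 values close to those reported (a count within 1.5 times, or a value inside the 95% interval) and 6 that were not. The number of sites, 726, was 357 at a threshold of 1.5. Their share of distal pairs, 11.6%, was 9.96% when centred on the strongest 20% of pairs, 16.2% at a threshold of 0.8, 8.59% at 1.2 and 5.70% at 1.5. Their share inside genes, 43.7%, was 39.5% at a threshold of 1.5, where even pairs had 50.9%. Closeness was judged for these sites alone, without the even pairs they were set beside. With fold in place of pileup, 46.7% of the sites and 50.5% of even pairs lay inside genes. At a threshold of 0.8 the shares were 46.6% and 51.2%. Under both the gap was narrower than the reported 43.7% against 51.3%. The shifts in number and in share of distal pairs follow from the threshold or the centre itself, while for the share inside genes the cause was not tested. With fold in place of pileup there were 718 sites, of which 502 were shared with the 726, so which sites are chosen depends on the measure. The share of listed epidermal sites in the group, 4.38%, was 8.53% at a threshold of 0.8 and 1.61% at 1.5, each below the share of distal pairs at that threshold. Leaving out pairs with a background above 50 was chosen after seeing the data and left 722 sites. Of the 726, 1 had such a background, and the others lost fell below the threshold when the median was taken again (0.492 in place of 0.490). The windows of 20 and 100 kb for neighbours were also chosen after seeing the data. A peak listed in WT alone stood within 20 kb of 10.7% and within 100 kb of 35.4% of the sites, against 22.3% and 52.1% of even pairs. The motif alternatives were not run, since no genome was used. No paired analysis was possible because each genotype had 1 ChIP library.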
